A study of Mus musculus with 8 samples.

Results

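The 10 genes described here mark the pyramidal cells of the hippocampal CA fields: Wfs1, Fibcd1, Mpped1 and Pou3f1 for CA1, Rgs14, Amigo2 and Pcp4 for CA2, and Bok, Coch and Ociad2 for CA3. They were chosen by name, out of 27373 distinct gene names on the array, and every non-control probe that carries one of these names was read, which gave 11 probes, with 2 probes for Coch and 1 for each other gene. They were measured in the hippocampus of 4 BTBR mice (BTBR T+ Itpr3tf/J, an inbred strain used as a model of autism spectrum disorder) and of 4 B6 mice (C57BL/6J, the wild type control strain), all male and 5 months old, with 1 mouse per single-color Agilent array. A field of the labels lists C57BL/6J as strain background for the BTBR samples too, whose title, source and genotype read BTBR, and inbred strains differ at many loci, so that no difference can be assigned to one allele. The arrays lay on 2 slides that were scanned separately, replicates 1 and 2 of both strains on slide 1 and replicates 3 and 4 of both strains on slide 2. The question here was whether the markers of the CA fields differ between BTBR and B6 hippocampus, over all arrays and within each slide.

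The pyramidal cells of the hippocampus are the glutamatergic principal neurons of Ammon's horn, and they form one continuous layer that is divided into fields. CA3 receives the mossy fibers of the dentate granule cells and sends the Schaffer collaterals to CA1, CA1 is the main output toward subiculum and cortex, and CA2, a small field between them, is known for its resistance to plasticity and its role in social memory. Each field expresses its own set of genes, and these genes are used to draw the borders between fields on tissue sections. Most are also expressed elsewhere in the brain: Pcp4 in cerebellar Purkinje cells, striatum and thalamus, Wfs1 in neocortex and striatum, and Pou3f1 in neocortex and in myelinating glia. In bulk tissue, fewer cells of a type and less RNA per cell cannot be told apart.

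Values are normalized log2 intensities, and a difference is BTBR minus B6 on that scale. All 11 probes passed the filter on dim probes, and 10 of them were well above background on all 8 arrays. The exception was one of the Coch probes, which rose well above background on 2 B6 arrays and 3 BTBR arrays and passed through its BTBR arrays. Over all probes the share well above background lay between 56.8% and 71.9% on B6 arrays and between 61.9% and 71.5% on BTBR arrays, no probe was saturated, and precision is limited by having 4 arrays a strain. All 6 genes of a list shared by pyramidal cells of every field (Slc17a7, Neurod6, Neurod2, Camk2a, Nrgn and Emx1) were well above background on all arrays by their brightest probe.

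The probes that the results turn on are shown by the first 30 of their 60 bases, 5′ to 3′ as the array files give them, since each value below is the signal of one such oligonucleotide and not of a whole transcript. Wfs1 and Fibcd1 are the genes that the rank product called, Pcp4 is the CA2 gene with the largest difference within a slide, and Coch is the gene read by 2 probes, which are named here by the base of the transcript at which the files place them.
Wfs1: atctcttctgagtaccccaggacttgggaa
Fibcd1: atcgaaaatctttccaagcctaggttggct
Pcp4: caaacctgaaatgcatgaagagaaacccat
Coch, base 2409: catatatcaagcttcttttgtagtgtgttt
Coch, base 820: cagcgccgatttaatttgcagaagaatttt
On mm9, the build of the array files, the Wfs1 probe (NM_011716) lies at chr5:37357424-37357483 on the minus strand, the Fibcd1 probe (NM_178887) at chr2:31669627-31669686 on the minus strand and the Pcp4 probe (NM_008791) at chr16:96747241-96747300 on the plus strand. The Coch probes (NM_007728) lie on the plus strand at chr12:52706487-52706546 for base 2409 and at chr12:52699189-52699248 for base 820. The files do not say in which exon or UTR a probe lies.

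Over all 8 arrays, none of the 11 probes differed between BTBR and B6 at an adjusted p under 0.05 in limma, against 7.61% of the 27982 probes tested. At an unadjusted p under 0.05 there were 3 (Wfs1, Mpped1 and Bok), where the background was 18.5%. For none of them did the 4 BTBR arrays lie wholly outside the 4 B6 arrays, which 14.2% of the probes tested did. The rank product, which the study's methods name and which permutes probes within arrays, called 2 of the 11 at a pfp of 0.05 or less, namely Wfs1 as up-regulated (background 1.64%) and Fibcd1 as down-regulated (background 2.29%). Of the 11 differences, 5 were above 0 and 6 below, with a median of -0.18 against 0.01 over all probes tested. The spread was wider among the BTBR mice. The SD was larger in BTBR than in B6 for all 11 probes, and the median ratio of the SDs was 2.76 against 1.37 over all probes tested, of which 66.7% had the larger SD in BTBR.

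**Figure D1:**
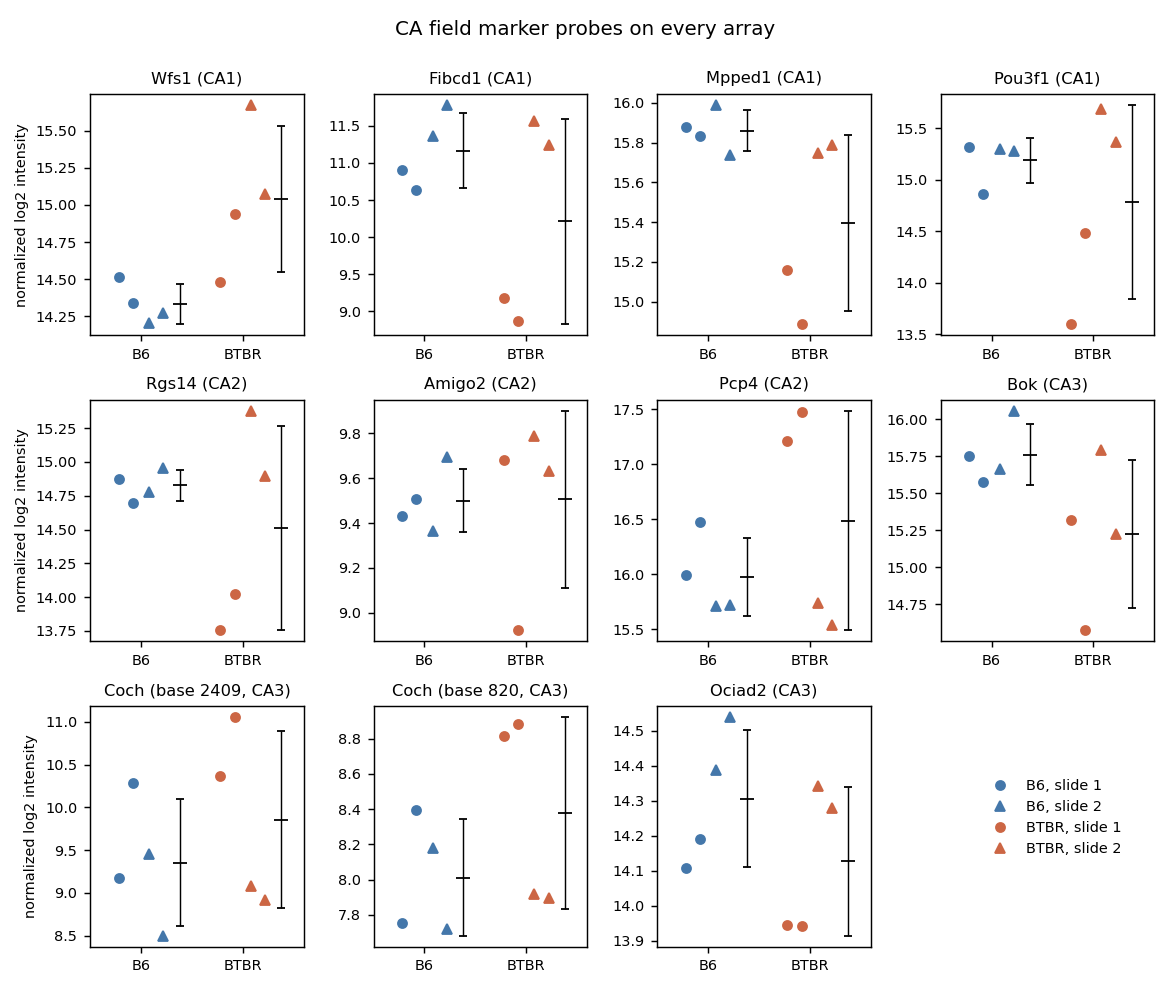
Normalized log2 intensity of the 11 CA field marker probes on each array, B6 in blue and BTBR in orange, circles for slide 1 and triangles for slide 2. Horizontal marks with bars are the mean and SD of the 4 arrays of a strain; the scale of each panel is its own and does not start at 0. In Fibcd1, Mpped1, Pou3f1, Rgs14 and Ociad2 the BTBR circles lie below every B6 array while the BTBR triangles do not. In Bok the BTBR circles and the triangle of BTBR array 4 lie below every B6 array. In Pcp4 and both Coch probes the BTBR circles lie above every B6 array.

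Among the CA1 genes, Wfs1 was the one with higher signal in BTBR. Wfs1 encodes wolframin, a membrane protein of the endoplasmic reticulum, and in the hippocampus it marks CA1. Its level was 14.52, 14.34, 14.20 and 14.27 on B6 arrays 1 to 4 and 14.48, 14.94, 15.67 and 15.07 on BTBR arrays 1 to 4. BTBR arrays 2, 3 and 4 lay above every B6 array, and BTBR array 1 lay within the B6 range. The mean of the B6 arrays was 14.33 ± 0.13 (SD, n = 4), that of the BTBR arrays was 15.04 ± 0.49 (SD, n = 4), and BTBR minus B6 gave a difference of 0.71 with SE 0.22 (95% interval from 0.22 to 1.20), with an adjusted p of 0.0959 in limma and a pfp of 0.0314 in the rank product. The two-sided exact permutation p was 0.0571, where 0.0286 is the smallest that 4 arrays against 4 allow. Within slide 1 the difference was 0.28 and within slide 2 it was 1.14, with adjusted p of 0.468 and 0.0367 in limma with the spread pooled over both slides. Without BTBR array 1 it was 0.90 over all other arrays, with an adjusted p of 0.0204 in limma, where 6.26% of all probes were called. The rank product no longer called Wfs1 without B6 array 3 or without BTBR array 2, 3 or 4.

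Fibcd1, Mpped1 and Pou3f1 were lower in BTBR on slide 1. On slide 2 the BTBR arrays lay within the B6 range for Fibcd1 and Mpped1 and above it for Pou3f1. Fibcd1 encodes a membrane receptor with a fibrinogen domain that binds acetylated compounds such as chitin. Its level was 10.90, 10.63, 11.36 and 11.78 on the B6 arrays and 9.18, 8.87, 11.56 and 11.24 on the BTBR arrays. Both BTBR arrays of slide 1 lay below every B6 array, and both of slide 2 lay within the B6 range. The difference over all arrays was -0.95 with SE 0.61 (adjusted p = 0.475 in limma, pfp = 0.0308 in the rank product). Within slide 1 it was -1.74 (adjusted p = 0.0029 in limma) and within slide 2 it was -0.17 (adjusted p = 0.845). Without both BTBR arrays of slide 1 the difference was 0.23. With each of the 8 arrays left out in turn, the rank product still called Fibcd1 without BTBR array 3 or 4 and with no other array left out.

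Mpped1, which encodes a protein with a metallophosphoesterase domain, had 15.88, 15.83, 15.99 and 15.74 on the B6 arrays and 15.16, 14.89, 15.75 and 15.79 on the BTBR arrays. Here too BTBR arrays 1 and 2 lay below every B6 array and arrays 3 and 4 within their range. The difference was -0.46 with SE 0.19 over all arrays (adjusted p = 0.242), -0.83 within slide 1 (adjusted p = 0.0097) and -0.10 within slide 2 (adjusted p = 0.867), all in limma. Pou3f1 encodes a POU domain transcription factor. It had 15.32, 14.86, 15.30 and 15.28 on the B6 arrays and 13.60, 14.48, 15.69 and 15.37 on the BTBR arrays. BTBR arrays 1 and 2 lay below every B6 array and BTBR arrays 3 and 4 above every B6 array. The difference was -0.41 with SE 0.40 over all arrays (adjusted p = 0.674), -1.05 within slide 1 (adjusted p = 0.0701) and 0.24 within slide 2 (adjusted p = 0.853), all in limma.

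The CA2 genes did not move in one direction. Rgs14 encodes a scaffold protein of the regulator of G protein signaling family that is known to restrain synaptic plasticity in CA2. It had 14.87, 14.70, 14.78 and 14.96 on the B6 arrays and 13.76, 14.02, 15.38 and 14.90 on the BTBR arrays, with the BTBR arrays of slide 1 below every B6 array and array 3 above. The B6 SD of 0.11 was small beside the BTBR SD of 0.76, the widest ratio of the 11 probes at 6.69. The difference was -0.31 with SE 0.32 over all arrays (adjusted p = 0.682), -0.90 within slide 1 (adjusted p = 0.0258) and 0.27 within slide 2 (adjusted p = 0.655), all in limma.

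Pcp4 showed the reverse of this pattern. It encodes a small peptide that binds calmodulin. Its level was 15.99, 16.47, 15.71 and 15.72 on the B6 arrays and 17.21, 17.47, 15.73 and 15.53 on the BTBR arrays. BTBR arrays 1 and 2 lay above every B6 array, BTBR array 3 lay within the B6 range and BTBR array 4 below it. The difference was 0.51 with SE 0.44 over all arrays (adjusted p = 0.617), 1.11 within slide 1 (adjusted p = 0.0112) and -0.08 within slide 2 (adjusted p = 0.932), all in limma. Amigo2 encodes an adhesion protein with leucine-rich repeats and an immunoglobulin domain, and its level was 9.43, 9.51, 9.37 and 9.70 on the B6 arrays and 9.68, 8.92, 9.79 and 9.63 on the BTBR arrays. BTBR array 2 was the low one, and the other BTBR arrays lay within or just above the B6 range. The difference was 0.01 with SE 0.18 (95% interval from -0.40 to 0.41, adjusted p = 0.993 in limma).

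Among the CA3 genes, Bok and Ociad2 had lower means in BTBR on both slides, and over all arrays neither limma nor the rank product called them. Bok, a member of the Bcl-2 family of apoptosis regulators, had 15.75, 15.58, 15.67 and 16.06 on the B6 arrays and 15.32, 14.58, 15.79 and 15.23 on the BTBR arrays. BTBR arrays 1, 2 and 4 lay below every B6 array and BTBR array 3 within the B6 range. The difference was -0.54 with SE 0.23 over all arrays (adjusted p = 0.252), -0.72 within slide 1 (adjusted p = 0.170) and -0.35 within slide 2 (adjusted p = 0.732), all in limma. Without BTBR array 3, the rank product called Bok lower. Ociad2, which encodes a protein with an OCIA domain, had 14.11, 14.19, 14.39 and 14.54 on the B6 arrays and 13.94, 13.94, 14.34 and 14.28 on the BTBR arrays. Both strains were lower on slide 1 than on slide 2, and the BTBR arrays of slide 1 were the lowest. Its difference was -0.18 with SE 0.13 over all arrays (adjusted p = 0.536), -0.20 within slide 1 and -0.15 within slide 2, with its SDs the nearest to equal of the 11 probes, at a ratio of 1.09.

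Coch encodes cochlin, a secreted matrix protein best known from the inner ear. The probe at base 2409 had 9.18, 10.29, 9.45 and 8.50 on the B6 arrays and 10.37, 11.06, 9.08 and 8.92 on the BTBR arrays, and the dimmer probe at base 820 had 7.75, 8.40, 8.18 and 7.72 on the B6 arrays and 8.82, 8.88, 7.92 and 7.90 on the BTBR arrays. In both probes the BTBR arrays of slide 1 lay above every B6 array, the BTBR arrays of slide 2 lay within the B6 range, and B6 array 2 was the highest of its strain. The difference was 0.50 with SE 0.53 for base 2409 (adjusted p = 0.691) and 0.37 with SE 0.27 for base 820 (adjusted p = 0.541) in limma. On the processed signal of the software, scaled to the 75th percentile of each array, the probe at base 820 differed by 1.37 (adjusted p = 0.541 in limma). Within slide 1 these differences were 0.98 and 0.78 (adjusted p = 0.216 and 0.0805), and within slide 2 they were 0.03 and -0.04 (adjusted p = 0.994 and 0.978).

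Set side by side, the slides differed in how far BTBR lay from B6. Within slide 1, limma called 4 of the 11 probes (Fibcd1, Mpped1 and Rgs14 lower, Pcp4 higher), where 8.66% of all probes tested were called. Within slide 2 it called 1 (Wfs1 higher), where the background was 3.7%. The median size of the difference, whatever its sign, was 0.83 on slide 1 and 0.17 on slide 2 for these probes, against 0.16 and 0.10 over all probes tested, and it was larger on slide 1 for 9 of the 11. The difference between the slides was itself tested in the same fit. No probe on the array reached an adjusted p under 0.05 (0 of 27982), and at an unadjusted p under 0.05 there were 7 of the 11 (Wfs1, Fibcd1, Mpped1, Pou3f1, Rgs14, Pcp4 and Coch at base 820), against a background of 9.93%. Without the Coch probe at base 820, which passed the filter through its BTBR arrays, there were 6 of 10.

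**Figure D2:**
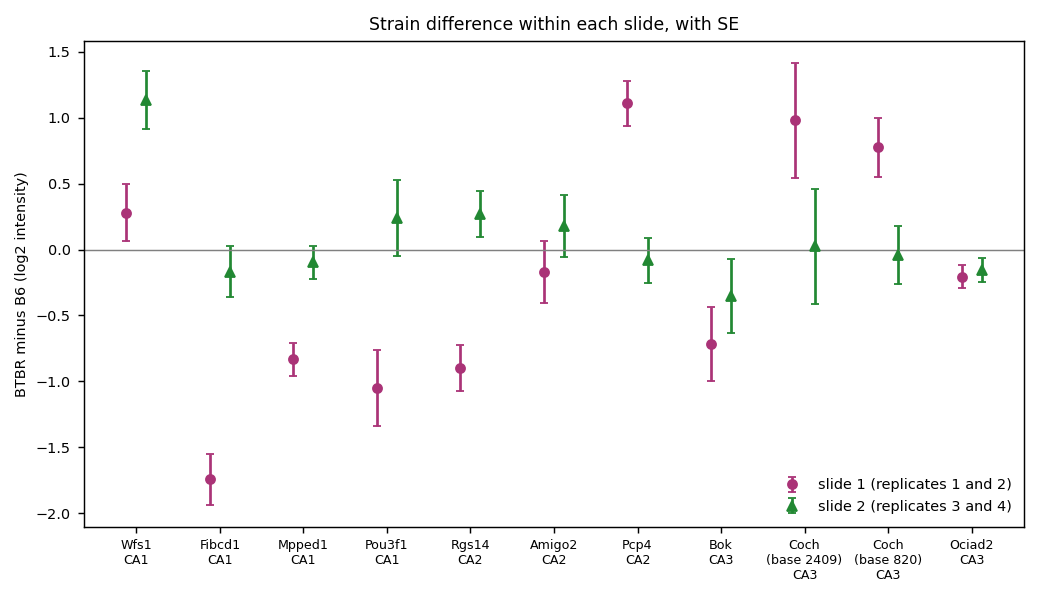
BTBR minus B6 in log2 intensity for each CA field marker probe, within slide 1 (circles) and within slide 2 (triangles), each from 2 arrays of either strain. Bars are the SE with the spread pooled over both slides, and the line marks no difference. Fibcd1 lies at -1.74 and Pcp4 at 1.11 on slide 1, and both lie within 0.2 of the line on slide 2, whereas Wfs1 lies at 0.28 on slide 1 and at 1.14 on slide 2.

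Slide 2 was also set against slide 1 within each strain. Between the slides within BTBR, limma called 4 of the 11 probes (slide 2 minus slide 1: Fibcd1 2.38, Rgs14 1.25, Mpped1 0.74 and Pcp4 -1.71, with adjusted p of 0.0177, 0.0334, 0.0425 and 0.0230), where 2.02% of all probes were called. At an unadjusted p under 0.05 there were 9 of the 11 (background 20.2%). Coch at base 820, which passed the filter through its BTBR arrays, is among these 9. Within B6 limma called none of the 11 probes and none on the whole array, with 3 of the 11 at an unadjusted p under 0.05 (background 4.87%). The median size of the step from slide 1 to slide 2 was 0.94 in BTBR and 0.20 in B6 for these probes, against 0.14 and 0.09 over all probes tested. Limma was also run without the BTBR arrays of either slide, a choice made after the values were seen. Without those of slide 1 it called 1 of the 11 (Wfs1 higher, background 5.54%), and without those of slide 2 it called 7 (Fibcd1, Mpped1, Pou3f1, Rgs14 and Bok lower, Pcp4 and Coch at base 820 higher, background 15.7%). The Coch probe at base 820 had passed the filter through its BTBR arrays, where it was high, and without it the count is 6 of 10. Counted by array, 6 of the 11 probes lay below the whole B6 range and 3 above it on BTBR array 1, and 7 below and 4 above on BTBR array 2. The Coch probe at base 820 is among those above on both of these arrays. On BTBR array 3 there were 0 below and 4 above, and on BTBR array 4 there were 2 below and 2 above. These counts describe the arrays, and the mice of a strain differed in the slide they were scanned on as well as in themselves, so that slide and animal cannot be told apart.

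Markers of some other cells and regions also lay furthest from B6 on BTBR arrays 1 and 2, and others did not. Each list was read by the brightest tested probe of each gene, as the mean deviation from the B6 mean in log2 intensity. The list shared by all pyramidal fields deviated by -0.65 and -0.91 on BTBR arrays 1 and 2 and by 0.12 and -0.02 on BTBR arrays 3 and 4, against -0.11 to 0.13 on the B6 arrays. All 6 of its genes were lower in BTBR on slide 1 and 3 of 6 on slide 2, and its summed intensity ran from 392510 to 422892 in B6 and from 306813 to 394440 in BTBR. Of these genes, Slc17a7, the vesicular glutamate transporter of these neurons, differed by -0.49 within slide 1 and -0.04 within slide 2, and Camk2a, a subunit of the calmodulin kinase of their synapses, by -0.84 and -0.02 at its bright probe.

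The dentate list (Prox1, Dsp, C1ql2, Tdo2, Lct and Trpc6), which marks the granule cells, deviated by -1.47 and -2.34 on BTBR arrays 1 and 2, by -0.39 and -0.23 on arrays 3 and 4, and from -0.72 to 0.58 on the B6 arrays. All 6 genes were lower in BTBR on slide 1 and 5 of 6 on slide 2, with a summed intensity from 12559 to 40351 in B6 and from 3902 to 25172 in BTBR. Of them Trpc6, a cation channel, fell by 0.95 over all arrays at an adjusted p of 0.0458 in limma, where 7.61% of all probes were called. This lay near the threshold of 0.05. Over the markers of all other cell types limma called 4 genes, and 3 to 6 with 1 array left out. Lists of neighboring regions were read in the same way. The thalamus list (Prkcd, Tcf7l2, Slitrk6, Rgs16, Lef1 and Ntng1) deviated by 2.60 on BTBR array 1 and by 0.06 to 0.30 on the other BTBR arrays, against -0.19 to 0.25 on the B6 arrays, with a summed intensity from 12472 to 18990 in B6 and from 15049 to 85283 in BTBR. The striatum list (Drd1a, Drd2, Adora2a, Rgs9 and Gpr6) deviated by 2.58 on BTBR array 2, 0.61 on BTBR array 1 and 1.13 on B6 array 2, and by -0.29 or less on the other arrays, with a summed intensity from 4068 to 12871 in B6 and from 3864 to 39364 in BTBR. The choroid plexus list (Ttr, Kl, Folr1, Kcne2 and Prlr) deviated by 1.28 and 1.17 on BTBR arrays 1 and 2 and by -0.68 and -0.54 on BTBR arrays 3 and 4, against -0.95 to 0.60 on the B6 arrays, with a summed intensity from 11600 to 36292 in B6 and from 14523 to 58871 in BTBR. The neocortex list (Lamp5, Cux2, Rorb, Tbr1 and Rprm) deviated by 0.84 and 0.31 on BTBR arrays 1 and 2 and by -0.20 and -0.003 on BTBR arrays 3 and 4, against -0.50 to 0.45 on the B6 arrays, so that BTBR array 1 alone lay above the B6 range. The oligodendrocyte list (Mbp, Mog, Mobp and Mag) deviated by 0.47 and 0.77 on BTBR arrays 1 and 2 and by 0.07 and -0.28 on BTBR arrays 3 and 4, against -0.09 to 0.13 on the B6 arrays. The meninges list (Slc6a13, Slc47a1, Aldh1a2, Col1a2 and Slpi) deviated by 0.75, 0.12, 0.83 and 1.41 on BTBR arrays 1 to 4 and by -0.49 to 0.61 on the B6 arrays, and the astrocyte list (Gfap, Aqp4, Aldh1l1, Slc1a3 and Gja1) by -0.32, -0.41, -0.30 and -0.31 and by -0.05 to 0.05. B6 array 2 was the highest B6 array for the striatum and neocortex lists (1.13 and 0.45) and the lowest for the dentate list (-0.72). It was also the highest B6 array for Pcp4 and both Coch probes. Whether the make-up of the tissue taken had a part in the differences of the CA field markers was not tested.

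**Figure D3:**
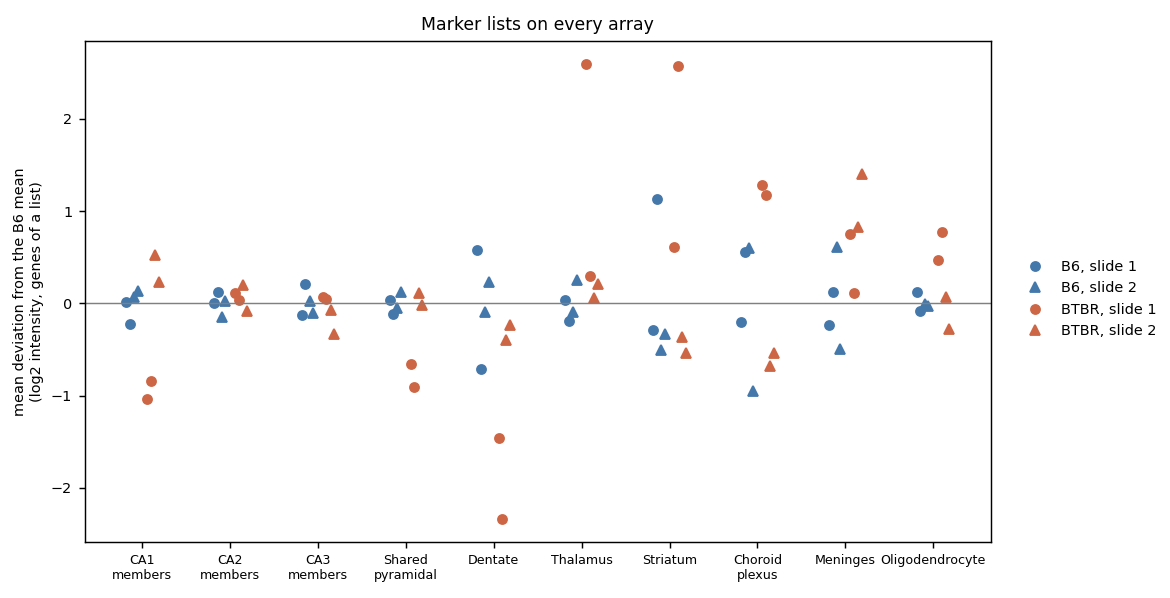
Mean deviation of each marker list from its B6 mean on each array, in log2 intensity, averaged over the brightest tested probe of each gene of a list, with B6 in blue, BTBR in orange, circles for slide 1 and triangles for slide 2. On BTBR arrays 1 and 2 (orange circles) the CA1, shared pyramidal and dentate lists lie below 0 and the striatum and choroid plexus lists above it, and the thalamus list reaches 2.60 on BTBR array 1.

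Within the field lists the balance of genes differed. The CA1 genes together deviated by -1.03, -0.84, 0.53 and 0.23 on BTBR arrays 1 to 4, with 3 of 4 lower in BTBR on slide 1 (median -0.94) and 2 of 4 on slide 2 (median 0.07). The CA2 genes deviated by 0.12, 0.04, 0.20 and -0.08, where the fall of Rgs14 and the rise of Pcp4 on slide 1 lay on either side of 0. The CA3 genes deviated by 0.07, 0.05, -0.07 and -0.33, with Coch above and Bok and Ociad2 below their B6 means on BTBR arrays 1 and 2. A mean over the markers of CA2 or CA3 thus combined genes that lay in opposite directions.

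To set each marker beside the pyramidal genes of the same array, the mean of the 6 shared genes was subtracted. On this scale, which was added after the values were seen, the strains did not overlap for Wfs1 and Amigo2, where 8.79% of all probes tested did not. Wfs1 ran from -0.30 to 0.04 on the B6 arrays and from 0.65 to 1.41 on the BTBR arrays, and its difference was 1.07 over all arrays, 1.02 within slide 1 and 1.13 within slide 2 (two-sided exact permutation p = 0.0286, the smallest possible). Wfs1 thus differed by a like amount on both slides only after this subtraction. Its intensity differed by 0.28 within slide 1 and by 1.14 within slide 2. The shared genes were lower on BTBR arrays 1 and 2, so that their subtraction raised every gene there against B6. Amigo2 ran from -5.04 to -4.82 in B6 and from -4.79 to -4.11 in BTBR, a difference of 0.37 over all arrays, 0.57 within slide 1 and 0.17 within slide 2 (exact permutation p = 0.0286), where its intensity differed by 0.01. Over the 11 probes this test was run 11 times on this scale, and with so many tests such p values carry no call of their own.

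Mpped1 came to -0.10 on this scale, with -0.09 and -0.10 within slides 1 and 2, Rgs14 to -0.16 and 0.26 and Pou3f1 to -0.31 and 0.23. Their differences on slide 1 were smaller in size than on the intensity scale. Fibcd1 still differed by -1.002 within slide 1 and by -0.18 within slide 2. Bok differed by 0.02 and -0.36 and Ociad2 by 0.54 and -0.16. For Pcp4 and Coch, which were high on slide 1 in BTBR, the gap widened, to 1.85 within slide 1 for Pcp4 and to 1.72 and 1.51 for the Coch probes at base 2409 and base 820, while within slide 2 they differed by -0.09, 0.02 and -0.05. Since the shared genes were themselves lower on BTBR arrays 1 and 2, a gene with the same signal on all arrays would be high on this scale there.

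**Figure D4:**
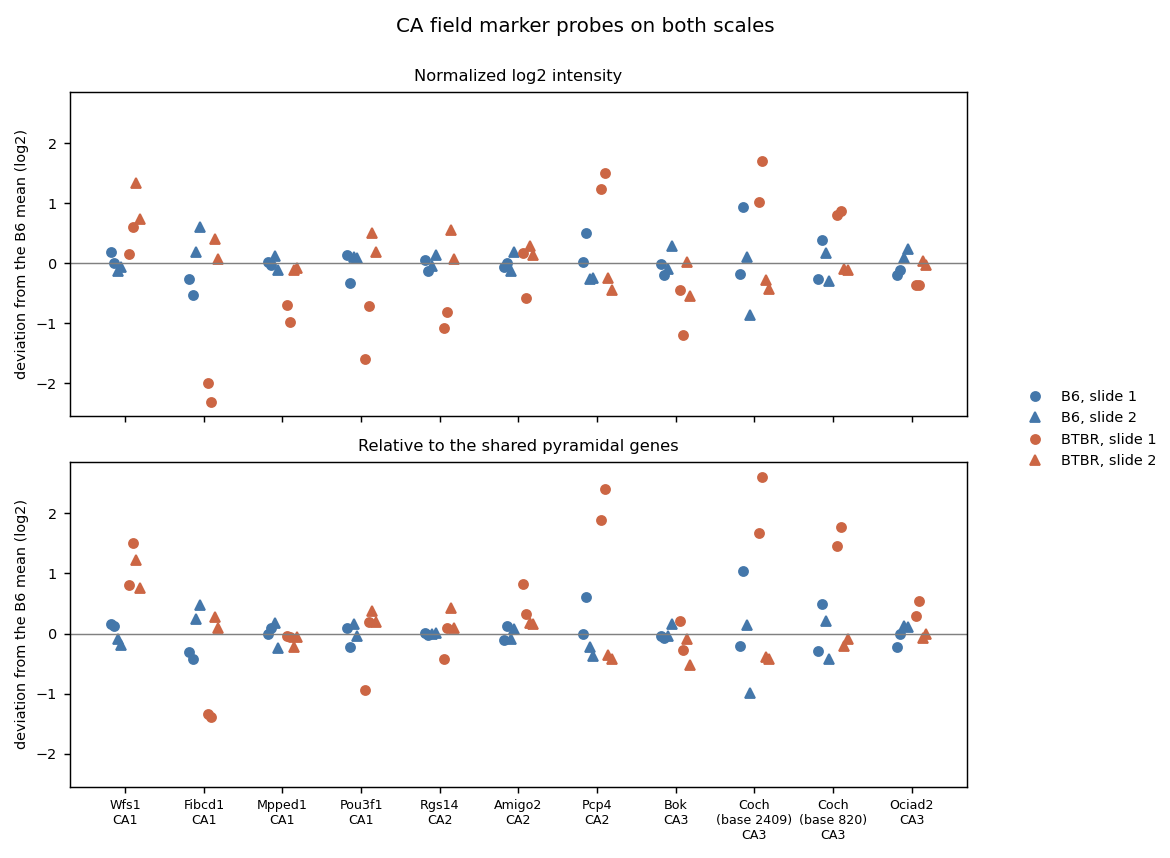
Deviation of each CA field marker probe from its B6 mean on each array, as normalized log2 intensity (upper panel) and after subtraction of the mean of the 6 shared pyramidal genes of the same array (lower panel), with B6 in blue, BTBR in orange, circles for slide 1 and triangles for slide 2. In the lower panel all 4 BTBR arrays of Wfs1 lie above the B6 arrays, Mpped1 lies near 0 throughout, and Pcp4 and both Coch probes reach further above 0 on the BTBR arrays of slide 1.

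Other genes known from the same fields were read in the same fit. Over 22 further field genes and shared pyramidal genes with a tested probe, limma called a probe of 1, Cpne4, a calcium-binding copine that marks CA3, where 7.61% of all probes were called. This probe passed the filter through its B6 arrays, where it was high, and differed by -1.49 (adjusted p = 0.000128 in limma), from 9.55, 9.13, 9.03 and 9.56 on the B6 arrays to 7.82, 7.72, 7.93 and 7.84 on the BTBR arrays, where it was well above background on 1 of 4 arrays, while the other Cpne4 probes differed by -0.26 and -0.82 and were not called. Of the other CA1 genes (Spink8, Man1a, Dcn and Nov), 4 of 4 were lower in BTBR by their brightest probe, with a median of -0.60, and limma called none while the rank product called 2 as down-regulated, Spink8 and Nov (background 2.29%). Of the other CA2 genes (Map3k15, Stard5, Necab2, Cacng5, Avpr1b, Ntf3, Actn2 and Nr3c2), 4 of 8 were lower, with a median of 0.03 and none called by either test. Of the other CA3 genes with a tested probe (Grik4, Cpne4, Pvrl3 and Plagl1), 4 of 4 were lower, with a median of -0.47, and at the brightest probe limma called none and the rank product 1 as down-regulated, Cpne4 (background 2.29%). Dcn, the matrix proteoglycan decorin, differed by -0.20, and no array had Iyd well above background.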

How the data were processed

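Hippocampal RNA of 4 BTBR and 4 B6 mice was labeled with Cy3 and hybridized to 1 array per mouse. The authors deposited the intensity of every spot, read by Agilent Feature Extraction (10.7.3.1 in the headers, 9.1 in the submitters' processing notes). The deposited matrix of log2 values was background subtracted and quantile normalized by the authors and was used as an alternative.
Computations used limma 3.58.1 in R 4.3.3. Local median background was subtracted from mean intensity (minimum 0.5), 50 was added, log2 values were quantile normalized and replicate spots took their median. Of 41174 non-control probes, 27982 were tested: 154 were dropped for an outlier flag, and the others needed a signal well above background on 75% or more of the arrays of a strain. Depth is the share of probes well above background.
Limma fitted strain alone, or the 4 strain and slide means, with Benjamini-Hochberg adjustment over all probes tested. The rank product used 100 permutations within arrays. Scripts were tested on simulated data. Members, lists and tests were chosen with earlier results of these data known. Named were all member probes, at most 3 called genes per list, and Slc17a7, Camk2a, Dcn and Iyd whatever their values. Alternatives were other background corrections and scalings, filters, thresholds and limma options, arrays left out, and replicate or slide as a block. The 16 lists count the member genes of each field, other CA1, CA2 and CA3 genes, shared pyramidal, dentate, thalamus, neocortex, striatum, choroid plexus, meninges, astrocyte, oligodendrocyte and microglia genes. Some list members are not reported here. The qRT-PCR data and the En2 mice were not analysed here.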

Additional observations from a re-analysis of the deposited data

Results flagged for a closer look

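In Pou3f1, B6 replicate 2 lay far from the other B6 arrays, with 14.86 against 15.28 to 15.32. Its gap to the nearest of them was 0.913 of the range of the group. It was the single one among 22 groups of 4 arrays (11 probes in each strain) that stood out in this way, where chance gives about 1 in 20.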

How the results depend on the processing

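The count of 0 member probes called by limma over all arrays held under every alternative but leaving out arrays. With 1 array left out it was 0 to 1, Wfs1 being called without BTBR replicate 1 (0.90, adjusted p = 0.0204). Without both BTBR arrays of slide 1, chosen after seeing the data, it was 1, again Wfs1 (1.04, adjusted p = 0.0130), with 0 by the rank product, 1 other CA field gene and 1551 probes in all (5.54%). Without both BTBR arrays of slide 2, also chosen later, it was 7 (15.7% of all probes, 4386), with 5 by the rank product, 11 other CA field genes and 19 other cell type markers. Directions turned without the BTBR arrays of slide 1 for Fibcd1 (0.23), Pou3f1 (0.34), Rgs14 (0.31), Pcp4 (-0.34), Coch at base 2409 (-0.35) and at base 820 (-0.10) and Ociad2 (0.0040). Amigo2, near 0 throughout, turned to -0.20 without those of slide 2, to -0.0017 with median centring and to as low as -0.088 (highest 0.20) with 1 array left out.
The rank product called 1 member (Coch at base 820) on the processed signal scaled to the 75th percentile, 0 at a pfp of 0.01 or less, and 0 to 2 with 1 array left out (Fibcd1 and Bok without BTBR replicate 3). On that signal limma called 2 members within slide 1 and 0 within slide 2, and 2 other CA field genes. Other CA field genes came to 0 for probes well above background on all arrays, 2 with the replicate block, with slide as a block and with trend and robust options, and 1 to 3 with 1 array left out. At an adjusted p under 0.01, 1196 of all 2129 probes were called.
The replicate number as a block left 0 members and 1650 probes called. Deviations of same-numbered arrays correlated at -0.14, 0.51, -0.10 and 0.39 for numbers 1 to 4. Without the correlations of differently numbered arrays, these values cannot decide whether the numbers pair the samples. Same-numbered arrays share a slide. With 1 array left out Pou3f1 ran from -0.71 to -0.010 and Rgs14 from -0.60 to -0.06 (smallest without BTBR replicate 1), Pcp4 from 0.19 to 0.83, Coch from 0.10 to 0.82 at base 2409 and from 0.20 to 0.53 at base 820, Fibcd1 from -1.40 to -0.51, Mpped1 from -0.60 to -0.29 and Bok from -0.72 to -0.32 (smallest without BTBR replicate 2), and Ociad2 from -0.25 to -0.10 (smallest without B6 replicate 4). Over the alternatives of the 11 single probes, 196 values kept direction and side of the threshold, 14 turned and 9 passed it. The arrays limit the precision, and the Coch probe at base 820 is near background.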

Other observations

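Spink8, a serine protease inhibitor that marks CA1 and was named after its values were seen, had 13.38, 13.13, 13.57 and 14.00 on the B6 arrays and 9.50, 10.79, 13.14 and 12.51 on the BTBR arrays. The difference was -2.03 with SE 0.70 over all arrays (adjusted p = 0.143 in limma, called as down-regulated by the rank product with a pfp of 8.85e-05), -3.11 within slide 1 (adjusted p = 0.00606) and -0.96 within slide 2 (adjusted p = 0.403). The BTBR arrays of slide 2 lay at the lower end of the B6 range and below it.
Lists of other cells, by the brightest tested probe of each gene, gave 1 of 5 meningeal genes up (Slpi, a protease inhibitor, 2.03), 1 of 5 astrocyte genes down (Gfap, the glial filament protein, -1.30) and 1 of 5 microglial genes up (Cx3cr1, the fractalkine receptor, 1.41) at an adjusted p under 0.05 in limma (background 7.61%), with medians of 0.68, -0.24 and -0.01. Another tested Cx3cr1 probe differed by -0.10 (adjusted p = 0.669), so that the probes of this gene disagree. In these 3 genes the 4 BTBR arrays lay apart from the 4 B6 arrays at the called probe, on both slides. Of the neocortex genes 0 of 5 and of the oligodendrocyte genes 0 of 4 were called by limma, with medians of 0.30 and 0.14. The oligodendrocyte genes were higher in BTBR for 4 of 4 genes on slide 1 (median 0.46) and lower for 3 of 4 on slide 2 (median -0.15). The thalamus, striatum and choroid plexus lists had 0 genes called by limma and medians of 0.90, 0.66 and 0.33, and the rank product called as up-regulated 2 of 6 thalamus genes, 1 of 5 striatum genes, 3 of 5 meningeal genes, 1 of 4 oligodendrocyte genes and 1 of 5 microglial genes (background 1.64%), and as down-regulated 4 of 6 dentate genes and 1 of 5 astrocyte genes (background 2.29%).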
